A study of Mus musculus with 14 samples.

Results

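Of the 23682 genes listed in both deposited kidney tables, 10 encode parts of the circadian clock or its immediate outputs and are described here: Clock, Per1, Per2, Per3, Cry1, Ciart, Nr1d1, Nr1d2, Dbp and Tef. Their rows were found by gene symbol, and no threshold on their values was used. All 10 were found and all 10 passed the filter on low counts. The libraries are bulk RNA sequencing of whole mouse kidney. They form 3 groups: 5 i-TERTci mice given doxycycline and the vehicle DMSO, 5 i-TERTci mice given doxycycline and GSK2830371, and 4 control mice that carried the actin-rtTA transgene alone and received doxycycline too. The i-TERTci mice carry 2 transgenes, actin-rtTA and TetOp-TERTci, so doxycycline switches on a catalytically inactive telomerase reverse transcriptase in all tissues, and GSK2830371 inhibits the phosphatase WIP1. Injections were daily and into the peritoneum, and none is recorded for the controls, which therefore differ from the DMSO group in transgene and in injection. Time on doxycycline was 29, 29, 29, 38 and 31 days in the DMSO group, 31, 49, 49, 49 and 28 days in the GSK2830371 group, and 30 days in each control. The labels call the mice adult and state no age.

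The mammalian clock is a feedback loop of transcription. CLOCK, or the related NPAS2 in its place, pairs with BMAL1, the product of Arntl, and activates genes that carry E-box elements, among them the Per, Cry, Nr1d, Dbp, Tef and Ciart genes. PER and CRY proteins then repress CLOCK and BMAL1, while the REV-ERB receptors encoded by Nr1d1 and Nr1d2 repress, and ROR receptors activate, Arntl. DBP, TEF and HLF are bZIP factors that bind D-box elements and carry the rhythm to metabolic genes. In kidney the loop is known for daily rhythms in transport of water and salts. Transcript levels of most of these genes therefore move through the day. The labels do not give the hour at which each kidney was taken, so the hour cannot be told apart from genotype or treatment.

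The 250 bases before the transcription start are shown for 4 of the genes, to show the letters through which the loop is known to act on genes whose levels are described below. Sequences are from RefSeq, build GRCm38.p6, written in the direction of transcription. Capitals mark matches to the E-box CACGTG, its variant CACGTT (read as AACGTG on the other strand) and the D-box TTATGTAA. The regions are chr3:95882229-95882478 (minus strand) for Ciart, chr4:151044666-151044915 (minus strand) for Per3, chr11:69098699-69098948 (plus strand, the first of the starts listed) for Per1 and chr11:98775378-98775627 (minus strand) for Nr1d1.
Ciart: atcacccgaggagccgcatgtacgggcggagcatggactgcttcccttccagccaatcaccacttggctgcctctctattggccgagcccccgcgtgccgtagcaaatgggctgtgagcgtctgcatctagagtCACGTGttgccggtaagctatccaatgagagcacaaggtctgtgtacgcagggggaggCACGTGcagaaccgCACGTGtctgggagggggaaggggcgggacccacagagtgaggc
Per3: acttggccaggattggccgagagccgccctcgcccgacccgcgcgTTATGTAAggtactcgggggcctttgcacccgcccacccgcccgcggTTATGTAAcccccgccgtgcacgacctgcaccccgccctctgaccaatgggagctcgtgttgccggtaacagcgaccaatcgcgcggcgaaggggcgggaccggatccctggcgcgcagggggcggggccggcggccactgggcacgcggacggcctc
Per1: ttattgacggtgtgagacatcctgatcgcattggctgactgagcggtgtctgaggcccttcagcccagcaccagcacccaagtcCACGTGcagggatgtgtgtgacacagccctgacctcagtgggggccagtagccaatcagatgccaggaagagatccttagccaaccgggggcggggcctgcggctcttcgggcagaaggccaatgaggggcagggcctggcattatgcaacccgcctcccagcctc
Nr1d1: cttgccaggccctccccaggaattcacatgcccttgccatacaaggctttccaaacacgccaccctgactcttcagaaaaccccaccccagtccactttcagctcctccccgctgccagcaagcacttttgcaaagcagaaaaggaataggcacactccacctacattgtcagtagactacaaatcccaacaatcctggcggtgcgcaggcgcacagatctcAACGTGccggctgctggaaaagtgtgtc

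The Ciart window held 3 E-boxes, beginning at -116, -58 and -44 relative to the start, and the Per1 window held 1, at -166, while the window of its other listed start (chr11:69099902-69100151) held none of the motifs searched. In Per3 there were 2 D-boxes, at -205 and -158, and no E-box within the window. Nr1d1 had 1 match to the variant, at -28. On both strands, 6.02% of 32851 mouse promoter windows of 250 bases held CACGTG, 3.85% held CACGTT and 0.82% held TTATGTAA, and no matches overlapped in the sequences shown. The other motifs searched were the D-box TTACGTAA, in 0.11% of windows, and the ROR element TAGGTCA, in 2.23%. Cry1 had an E-box at -60 and the variant at -79, and Tef had an E-box before each of its starts, at -127 and -138. No searched motif lay in the windows of Dbp, Clock or Nr1d2. Per2 was not in the promoter table. A match describes letters and does not show that a factor was bound.

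Depth was 47194888 to 48846771 reads in DMSO libraries, 48434771 to 49422279 in GSK2830371 libraries and 48469086 to 64581825 in control libraries. Levels are normalised reads, meaning whole reads recovered from the deposited values and divided by a size factor per library. A change is the difference in log2(normalised reads + 1), tested with limma across all 14 libraries, and is called at a Benjamini-Hochberg adjusted p under 0.05 over 18810 genes. Nothing in the labels says how the mice within a group were housed or bred relative to one another, and p-values measure the spread between these libraries. Tert, the gene the transgene encodes, had 1569, 1282, 2732, 1515 and 574 normalised reads in DMSO kidneys, 355, 231, 906, 2546 and 1448 in GSK2830371 kidneys, and 117, 183, 146 and 139 in control kidneys. All i-TERTci libraries lay above all controls, GSK2830371 replicates 1 and 2 by the least. The control libraries stood apart in ways beyond the transgene. Mitochondrial genes took 4.95% to 9.52% of reads in DMSO, 5.07% to 8.35% in GSK2830371 and 14.45% to 24.18% in control libraries. Mt-Nd6, encoded on the opposite mitochondrial strand from most mitochondrial genes, averaged 9430 ± 2343 normalised reads in DMSO, 9764 ± 4981 in GSK2830371 and 344 ± 219 in control kidneys (SD, n = 5, 5 and 4). Xist was high in 2 of 5 DMSO, 3 of 5 GSK2830371 and 4 of 4 control libraries, so all the controls and only some of the i-TERTci mice were female by this measure. Library preparation and genotype cannot be told apart here.

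The clock genes did not move together against control. In DMSO kidneys, 1 of the 10 was higher (Clock) and 6 were lower (Dbp, Nr1d1, Ciart, Per3, Per2 and Tef), beside 48.3% of all genes called in that comparison, 25.2% higher and 23.1% lower. In GSK2830371 kidneys, 1 was higher (Clock) and 3 were lower (Dbp, Per3 and Per2), beside 46.3% of all genes, 24.3% higher and 22.1% lower. The median log2 change of the 10 genes was -0.85 in DMSO against control and -0.65 in GSK2830371 against control, while over all genes tested it was 0.03 and 0.01. Levels in all DMSO libraries lay below all control libraries for 5 of the 10 genes (18.8% of all genes) and above for 1 (20.0%, together 38.8% of all genes). In GSK2830371 kidneys this held for 3 below (19.6%) and 1 above (20.8%, together 40.3%). Among Xist-positive libraries alone (2 DMSO, 3 GSK2830371 and 4 control), the log2 changes in DMSO against control were -2.03 for Dbp, -1.85 for Nr1d1, -0.97 for both Ciart and Per3, and -0.86 for Per2, each called by limma (adjusted p at most 0.0136). In GSK2830371 against control they were -2.73 for Dbp, -1.44 for Nr1d1, -1.20 for Ciart, -1.27 for Per3 and -1.03 for Per2, also called (adjusted p at most 0.00739). With all libraries Nr1d1 and Ciart were not called there. This subset leaves out GSK2830371 replicate 1, the highest library of its group for both genes. The DMSO calls of Clock and Tef were lost in the subset (limma adjusted p = 0.0781 and 0.356). Of all 18810 genes, 6059 were called in DMSO and 7676 in GSK2830371 against control in this subset. Both comparisons use the same 4 control libraries, so they are not independent of each other. Between GSK2830371 and DMSO kidneys 0 of the 10 genes were called, as for all genes (0.0%).

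**Figure D1:**
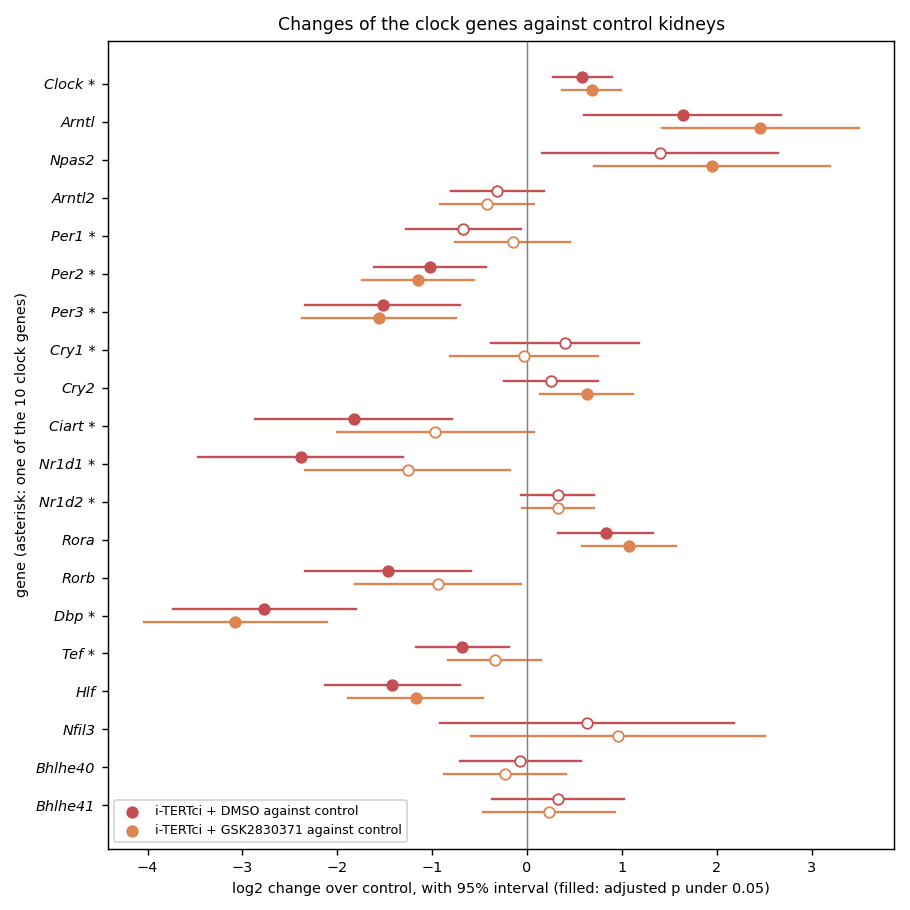
Log2 change over control kidneys (horizontal axis) of the 10 clock genes, marked with an asterisk, and 10 other clock transcription factors (rows), for i-TERTci + DMSO (red) and i-TERTci + GSK2830371 (orange). Points are limma estimates, bars their 95% intervals, and filled points have an adjusted p under 0.05; Dbp lies farthest left in both comparisons (-2.77 and -3.08) and Arntl farthest right (1.64 and 2.46).

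Clock (ENSMUSG00000029238, chr5:76209868-76304792, minus strand), the activator itself, was the one member that was higher in both i-TERTci groups. It had 2412, 2577, 3355, 2981 and 2478 normalised reads in DMSO kidneys, 3112, 3043, 2879, 2929 and 2714 in GSK2830371 kidneys, and 1498, 1662, 1950.5 and 2297 in control kidneys. Every i-TERTci library lay above every control library. The log2 change was 0.58 (SE 0.15, limma adjusted p = 0.00425) in DMSO and 0.68 (SE 0.15, adjusted p = 0.00157) in GSK2830371 against control, which are 1.50-fold and 1.60-fold. Clock was also the steadiest of the 10 genes among GSK2830371 kidneys, where its highest library was 1.15 times its lowest. With Xist-positive libraries only, the DMSO change was 0.47 and no longer called (adjusted p = 0.0781).

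Arntl, which encodes the partner of CLOCK, and Npas2 are not among the 10 genes, but the loop turns on them. Arntl had 493, 234, 295, 637 and 129 normalised reads in DMSO kidneys, 1425, 666, 333, 229 and 663 in GSK2830371 kidneys, and 86.9, 94.6, 101 and 112 in control kidneys. The groups did not overlap with control, and the i-TERTci libraries were spread over a wide range while the controls were tight. The log2 change was 1.64 (SE 0.49, limma adjusted p = 0.012) in DMSO and 2.46 (SE 0.49, adjusted p = 0.00093) in GSK2830371 against control. With Xist status as a covariate the DMSO change of Arntl was 0.81 (adjusted p = 0.105). Npas2, which can stand in for CLOCK, had 207, 152, 234, 429 and 110.1 normalised reads in DMSO kidneys, 960.3, 506, 132, 110.0 and 337 in GSK2830371 kidneys, and 41.8, 116, 57.2 and 122 in control kidneys. Both i-TERTci ranges overlapped the control range, with Npas2 called in GSK2830371 (log2 change 1.95, adjusted p = 0.0133) and not in DMSO (1.40, adjusted p = 0.0595).

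The 3 Per genes, which encode the repressors, differed from one another. Per3 (ENSMUSG00000028957, chr4:151003652-151044665, minus strand) had 548, 1264, 1738, 544 and 1849 normalised reads in DMSO kidneys, 481, 1113, 1186, 1422 and 1166 in GSK2830371 kidneys, and 2821, 2759, 3036 and 3362 in control kidneys. No i-TERTci library reached the lowest control. Its log2 change was -1.52 (SE 0.38, limma adjusted p = 0.00453) in DMSO and -1.56 (SE 0.38, adjusted p = 0.00408) in GSK2830371 against control. Per2 (ENSMUSG00000055866, chr1:91415982-91459324, minus strand) had 1039.9, 2225, 3171, 1853 and 2195 normalised reads in DMSO kidneys, 1132, 1489, 1886, 2686 and 2226 in GSK2830371 kidneys, and 3669.7, 3985, 3896 and 4504 in control kidneys. Here too the i-TERTci and control libraries did not overlap. Its log2 change was -1.02 (SE 0.28, adjusted p = 0.00716) in DMSO and -1.15 (SE 0.28, adjusted p = 0.00355) in GSK2830371 against control.

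Per1 (ENSMUSG00000020893, chr11:69095217-69109960, plus strand), which is also known to respond quickly to glucocorticoids, was called in neither comparison. It had 4492, 5729, 6524, 4916 and 5675 normalised reads in DMSO kidneys, 16277, 8131, 5843, 5069 and 7311 in GSK2830371 kidneys, and 5546, 10673, 8703 and 10804 in control kidneys. One control library was as low as the DMSO libraries, and replicate 1 of the GSK2830371 group was the highest of all 14. Its log2 change was -0.67 (95% interval -1.28 to -0.06, limma adjusted p = 0.0634) in DMSO and -0.15 (interval -0.76 to 0.46, adjusted p = 0.692) in GSK2830371 against control. The DMSO change passed the threshold without control replicate 1, with DESeq2 (adjusted p = 0.0431), with Xist status as a covariate (0.0437) and when only those 2 groups were fitted (0.0223).

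Cry1 (ENSMUSG00000020038, chr10:85131700-85185064, minus strand), the cryptochrome repressor, had 1193, 749.9, 884, 1157 and 266 normalised reads in DMSO kidneys, 426, 432, 757, 501 and 776 in GSK2830371 kidneys, and 432, 507, 684 and 711 in control kidneys. In DMSO kidneys 4 of 5 libraries lay above every control and replicate 5 lay below every control. The log2 change of Cry1 was 0.40 (SE 0.37, limma adjusted p = 0.385) in DMSO and -0.03 (SE 0.37, adjusted p = 0.947) in GSK2830371 against control. Without DMSO replicate 5 the DMSO change of Cry1 was 0.77 and called (adjusted p = 0.0184). Its paralogue Cry2 was called in GSK2830371 (log2 change 0.63, adjusted p = 0.0357) and not in DMSO (0.25, adjusted p = 0.383), and the GSK2830371 call was lost with Xist status as a covariate (adjusted p = 0.091).

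Ciart (ENSMUSG00000038550, chr3:95878503-95882251, minus strand) encodes CHRONO, a further repressor of CLOCK and BMAL1. Its levels were 56.8, 342, 341, 143 and 426 normalised reads in DMSO kidneys, 839, 334, 298, 342 and 285 in GSK2830371 kidneys, and 749, 804, 696 and 743 in control kidneys. All DMSO libraries and 4 of 5 GSK2830371 libraries lay below the controls, and GSK2830371 replicate 1 lay above them. Ciart changed by -1.83 on the log2 scale (SE 0.49, limma adjusted p = 0.00664) in DMSO and -0.97 (SE 0.49, adjusted p = 0.118) in GSK2830371 against control. Without GSK2830371 replicate 1 the change in that group was -1.25 and called (adjusted p = 0.0475). Among DMSO kidneys Ciart had the widest range of the 10 genes, its highest library 7.49 times its lowest, while the control libraries spanned 1.16 times.

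**Figure D2:**
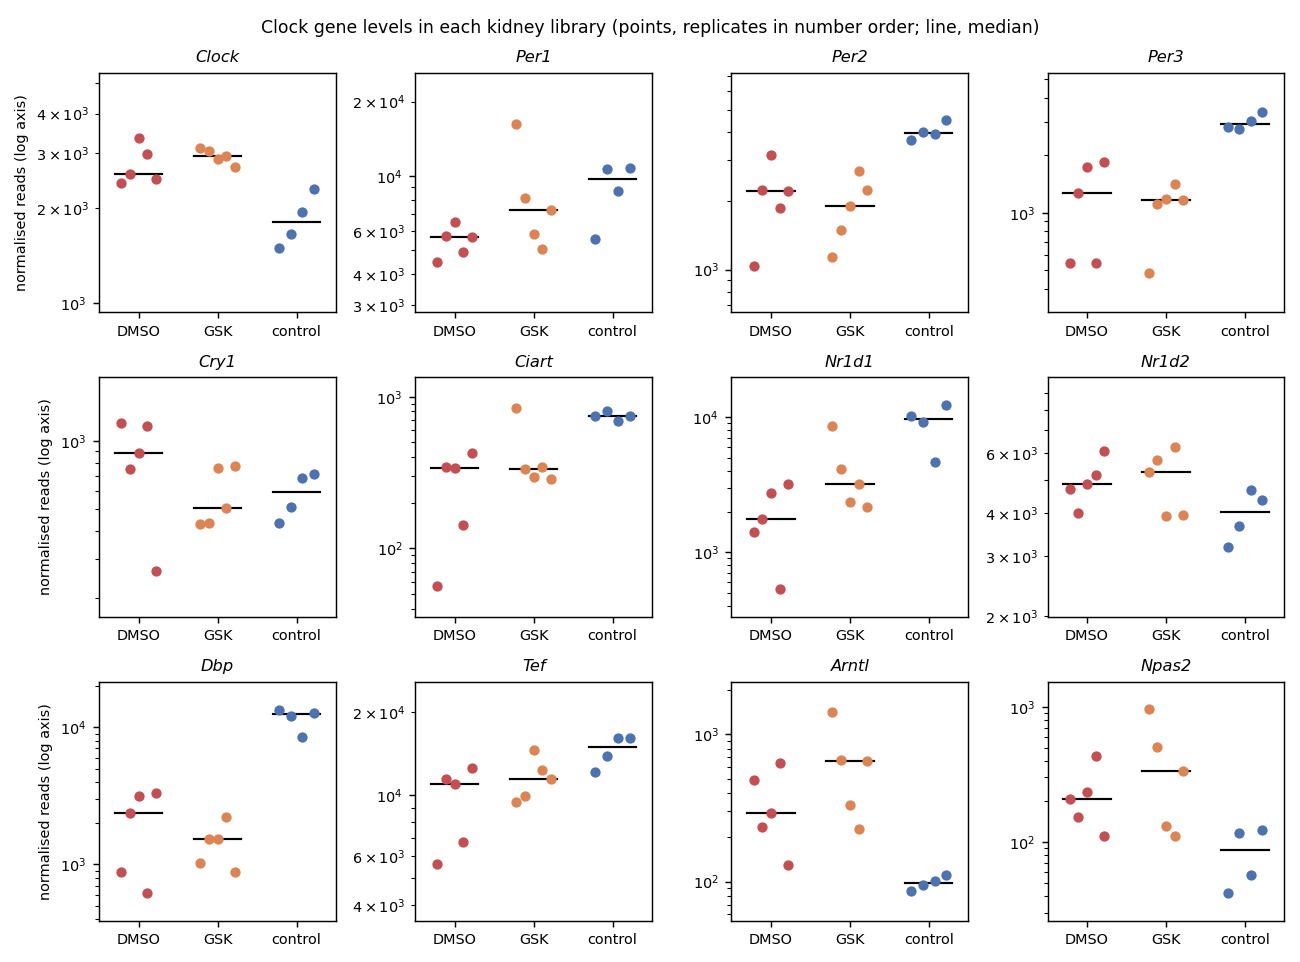
Normalised reads (vertical log axis) of the 10 clock genes, Arntl and Npas2 in each library; points are single kidneys in replicate order for i-TERTci + DMSO (red), i-TERTci + GSK2830371 (orange, marked GSK) and actin-rtTA control (blue), and lines are group medians. Dbp, Per2 and Per3 libraries of both i-TERTci groups sit below all controls, Clock and Arntl libraries above them, and replicate 1 of the GSK2830371 group stands high in Per1, Ciart, Nr1d1 and Arntl.

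Of the REV-ERB genes, Nr1d1 was lower in DMSO kidneys and Nr1d2 was called in neither comparison. Nr1d1 (ENSMUSG00000020889, chr11:98767932-98775333, minus strand) had 1413, 1768, 2754, 535 and 3179 normalised reads in DMSO kidneys, 8574, 4144, 2367, 3195 and 2181 in GSK2830371 kidneys, and 10146, 9186, 4677 and 12329 in control kidneys. The DMSO range lay wholly under the control range, while GSK2830371 replicate 1 fell within it. Nr1d1 changed by -2.39 on the log2 scale (SE 0.50, limma adjusted p = 0.00156) in DMSO and -1.26 (SE 0.50, adjusted p = 0.0537) in GSK2830371 against control. Without GSK2830371 replicate 1 the change in GSK2830371 kidneys was -1.57 and called (adjusted p = 0.0172), and it was also called without control replicate 3 (adjusted p = 0.0256), with voom (0.0489) and with DESeq2 (0.0285). Nr1d2 (ENSMUSG00000021775, chr14:18204054-18239127, minus strand) had 4714, 4013, 4886, 5169 and 6072 normalised reads in DMSO kidneys, 5290.4, 5729, 3923, 6246 and 3947 in GSK2830371 kidneys, and 3192, 3664, 4681 and 4385 in control kidneys. The 3 ranges overlapped, with log2 changes of 0.32 (SE 0.18, adjusted p = 0.15) in DMSO and 0.33 (SE 0.18, adjusted p = 0.148) in GSK2830371 against control.

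Among ROR receptors, which compete with REV-ERB for the same elements, Rora was higher in both i-TERTci groups. Rora ranged over 3148 to 6025 normalised reads (median 3749) in DMSO, 3227 to 6928 (median 4579) in GSK2830371 and 1810.1 to 2995 (median 2159.8) in control kidneys, with no overlap. Its log2 change was 0.83 (limma adjusted p = 0.00914) in DMSO and 1.08 (adjusted p = 0.00176) in GSK2830371 against control. Rorb, at 3.31 to 30.8 normalised reads in all libraries, was lower in DMSO (-1.47, adjusted p = 0.00849) and not called in GSK2830371 kidneys (-0.94, adjusted p = 0.0744).

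Dbp (ENSMUSG00000059824, chr7:45705088-45710203, plus strand), the D-box activator, changed most of the 10 genes in both comparisons. It had 881, 2365, 3126, 620.4 and 3331 normalised reads in DMSO kidneys, 1029, 1535, 1524, 2215 and 884 in GSK2830371 kidneys, and 13444, 12052, 8469 and 12750.4 in control kidneys. The highest i-TERTci library was well below the lowest control. Dbp changed by -2.77 on the log2 scale (SE 0.45, limma adjusted p = 0.000226) in DMSO and -3.08 (SE 0.45, adjusted p = 0.000115) in GSK2830371 against control, so Dbp was 6.83-fold and 8.43-fold higher in control kidneys. Per kilobase of exon, the median of Dbp was 790.2 normalised reads in DMSO, 509.2 in GSK2830371 and 4143 in control kidneys. On that scale it was the highest of the 10 genes in control kidneys, whereas Tef was the highest in the DMSO (1392) and GSK2830371 (1453) kidneys.

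Exons of Dbp share 539 bases (18.0% of its exon length) with Sphk2 on the opposite strand, and exons of Nr1d1 share 263 bases (8.5%) with Thra. No label or header gives the strand setting of the counting, so reads in shared bases cannot be assigned to either gene. Sphk2 was also lower, by log2 changes of -1.40 in DMSO (limma adjusted p = 2.5e-05) and -1.29 in GSK2830371 (adjusted p = 5.4e-05) against control. Thra changed by -0.59 (adjusted p = 0.0119) in DMSO and -0.21 (adjusted p = 0.342) in GSK2830371 against control. The part of this overlap in the Dbp and Nr1d1 values was not tested.

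Tef (ENSMUSG00000022389, chr15:81802421-81826863, plus strand), of the same bZIP family, moved much less. Its levels were 5609, 11408, 10949, 6776 and 12536 normalised reads in DMSO kidneys, 9422, 9949, 14614, 12339 and 11428 in GSK2830371 kidneys, and 12127, 13841, 16073 and 16143 in control kidneys. DMSO replicates 1 and 4 were the lowest, and both i-TERTci ranges overlapped the control range. The log2 change was -0.68 (SE 0.23, limma adjusted p = 0.0236) in DMSO and -0.34 (SE 0.23, adjusted p = 0.239) in GSK2830371 against control. The DMSO call was lost with Xist status as a covariate (-0.41, adjusted p = 0.19), with libraries at 31 days or fewer (-0.58, adjusted p = 0.0769), and without any one of DMSO replicate 1, DMSO replicate 4, control replicate 3 or control replicate 4. Hlf, the third member of the family, was lower in both, with a log2 change of -1.42 (adjusted p = 0.00285) in DMSO and -1.17 (adjusted p = 0.01) in GSK2830371 against control. Nfil3, which represses through the same D-boxes, ranged over 227 to 4777 normalised reads in DMSO, 546 to 3276 in GSK2830371 and 539 to 738 in control kidneys and was not called (log2 changes 0.63 and 0.96, adjusted p = 0.491 and 0.291). The remaining core factors Arntl2, Bhlhe40 and Bhlhe41 were not called in either comparison.

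GSK2830371 was also set against its vehicle within i-TERTci mice, which bears on WIP1 inhibition. Replicates 2, 3 and 4 of the GSK2830371 group were at 49 days on doxycycline, and the longest time in the DMSO group was 38 days. Treatment and time on doxycycline therefore cannot be fully told apart. No clock gene was called: over the 10 genes the lowest limma adjusted p was 0.994, and for all genes 800 (4.25%) had an unadjusted p under 0.05, with 0 called after adjustment by limma or edgeR and 1 by DESeq2. The largest estimate was that of Nr1d1, at a log2 change of 1.13 (95% interval 0.11 to 2.15), followed by Ciart at 0.86 (-0.12 to 1.84) and Per1 at 0.52 (-0.05 to 1.10). For Dbp it was -0.30 (-1.21 to 0.61), for Per2 -0.13 (-0.69 to 0.43), for Per3 -0.04 (-0.81 to 0.73) and for Clock 0.10 (-0.20 to 0.39). Every one of the 10 genes had overlapping GSK2830371 and DMSO ranges, and 0.484% of all genes did not overlap. The intervals of Nr1d1, Ciart, Per1, Cry1 and Dbp include differences beyond 1 log2 unit, and a p that misses the threshold does not show that the groups are alike. Nr1d1, Ciart and Tef were called against control in DMSO kidneys and not in GSK2830371 kidneys, but their difference between the treatments did not pass.

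For 8 of the 10 genes the libraries of both i-TERTci groups spanned a wider range than the controls. Dbp spanned 5.37 times in DMSO, 2.51 times in GSK2830371 and 1.59 times in control kidneys from lowest to highest library, and Per3 spanned 3.40 times in DMSO, 2.95 in GSK2830371 and 1.22 in control kidneys. The exceptions were Clock (1.39 times in DMSO, 1.15 in GSK2830371 and 1.53 in control) and Per1 (1.45, 3.21 and 1.95). For Nr1d2 the spans were close (1.51, 1.59 and 1.47). These spans were not tested, and the share of all genes with wider i-TERTci spans was not computed. A span can only widen as libraries are added, and the groups hold 5, 5 and 4. The controls were all Xist-positive at 30 days, while both i-TERTci groups mixed Xist status and time on doxycycline. The ratio of Dbp to Arntl normalised reads, which is not per length, was 1.79, 10.1, 10.6, 0.973 and 25.8 in DMSO kidneys, 0.722, 2.31, 4.57, 9.69 and 1.33 in GSK2830371 kidneys, and 155, 127, 83.6 and 114 in control kidneys. All control ratios were above all i-TERTci ratios, and the lowest ratios were those of GSK2830371 replicate 1 and DMSO replicate 4. These libraries were taken at 31 and 38 days on doxycycline, and both were Xist-negative. The next lowest, GSK2830371 replicate 5 (1.33) and DMSO replicate 1 (1.79), were Xist-negative too. The remaining Xist-negative library, DMSO replicate 3, had 10.6, and the Xist-positive i-TERTci libraries had 2.31 to 25.8. The part of Xist status in these ratios was not tested. In GSK2830371 replicate 1, high Arntl (1425) and low Dbp (1029) and Per3 (481) stood with high Per1 (16277), Nr1d1 (8574) and Ciart (839). DMSO replicate 4 had Arntl at 637 and Dbp at 620.4, but Nr1d1 at 535 and Ciart at 143 were low too.

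**Figure D3:**
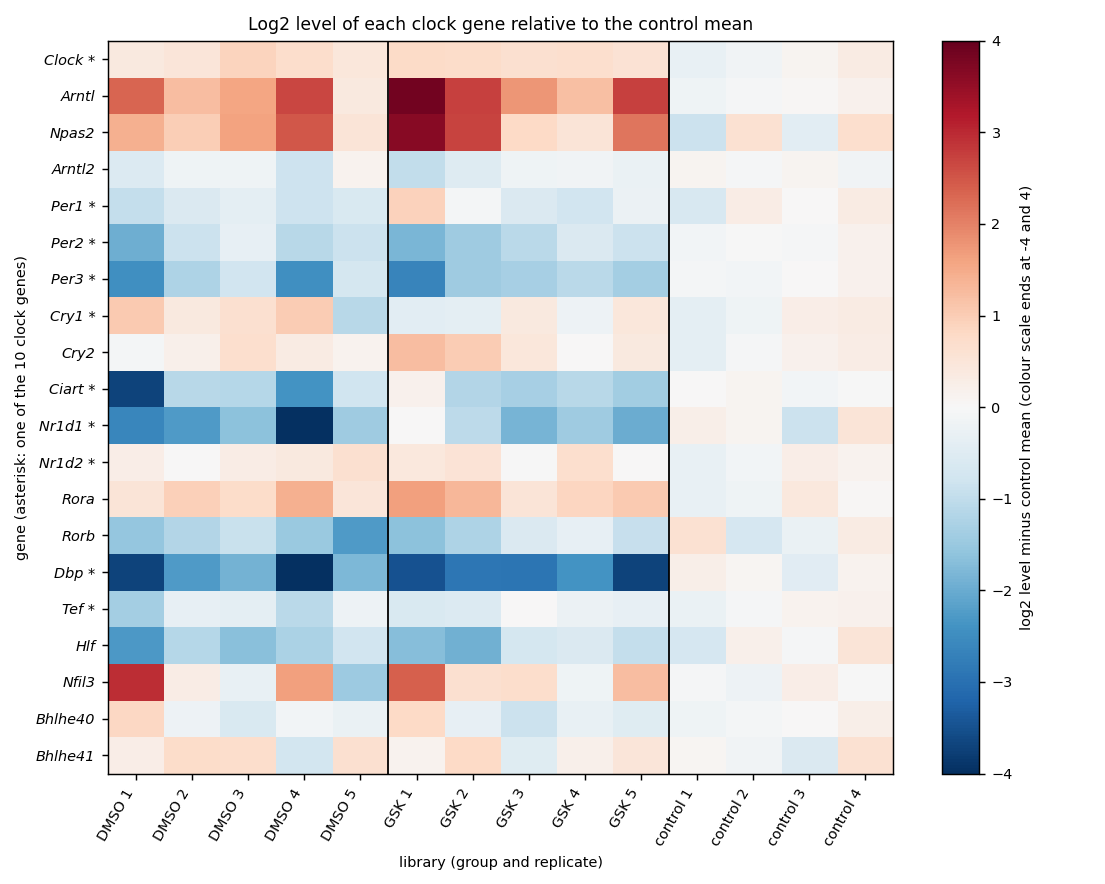
Log2 level of each clock gene (rows; asterisk, one of the 10) in each library (columns: i-TERTci + DMSO, i-TERTci + GSK2830371 as GSK, control) minus the mean of the control libraries, red above and blue below, with colours ending at -4 and 4. Dbp is blue and Arntl red in all 10 i-TERTci libraries, and GSK2830371 replicate 1 is near 0 for Nr1d1 and Ciart where the DMSO libraries are blue.

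Over the 10 i-TERTci libraries, each clock gene was correlated with Arntl on the log2 scale, with p-values from 100000 permutations adjusted over the 10 relations. Per3 ran against Arntl (Pearson r = -0.784, permutation p = 0.0064, adjusted 0.0389; Spearman rho = -0.867, p = 0.0023, adjusted 0.023). Dbp did likewise (r = -0.783, permutation p = 0.00779, adjusted 0.0389; rho = -0.685, p = 0.0346, adjusted 0.173). The other 8 relations did not pass: the nearest were Per1 (r = 0.651, permutation p = 0.0412, adjusted 0.117) and Per2 (r = -0.641, permutation p = 0.0467, adjusted 0.117), and Nr1d1 and Ciart had r of 0.15 and 0.02. These values leaned on GSK2830371 replicate 1. Without that library r was 0.272 for Per1, -0.483 for Per2, -0.381 for Nr1d1 and -0.488 for Ciart. For Ciart rho was then -0.767 (permutation p = 0.0214, adjusted 0.107), and none of these relations passed. With values centred on each treatment group 3 relations passed: Per3 (r = -0.854, permutation p = 0.00214, adjusted 0.0214), Dbp (r = -0.791, p = 0.00792, adjusted 0.0264) and Tef (r = -0.792, p = 0.00777, adjusted 0.0264), where Tef had r = -0.466 without centring (adjusted 0.358). The permutations moved centred values freely between the treatment groups, so these p-values can be too small. Settings with libraries left out used values without centring. Without the 2 libraries farthest from the Arntl median, GSK2830371 replicate 1 and DMSO replicate 5, r was -0.80 for Dbp (permutation p = 0.0266, adjusted 0.266) with rho of -0.595. For Per3 it was -0.58 (permutation p = 0.156, adjusted 0.545) with rho of -0.738 (p = 0.0458, adjusted 0.378). Over these 8 libraries neither passed, although r of Dbp was not weaker than over all 10, while r of Per3 was weaker. The Dbp call was also lost without DMSO replicate 3 alone (r = -0.802, permutation p = 0.01, adjusted 0.0554). With 1 library left out at a time, Pearson's r passed for Per3 without DMSO replicate 1, GSK2830371 replicate 2 or GSK2830371 replicate 5 and for Dbp without GSK2830371 replicate 2. Spearman's rho passed for Per3 in those same 3 settings and without DMSO replicate 3 or DMSO replicate 4, and for Dbp in none. The values share libraries and size factors. Xist status also differed among these libraries. Arntl had 295 to 1425 normalised reads in Xist-negative and 129 to 666 in Xist-positive ones. For Dbp the ranges were 620.4 to 3126 and 1524 to 3331, and for Per3 481 to 1738 and 1113 to 1849. No correlation was adjusted for Xist status, and its part in these relations was not tested.

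**Figure D4:**
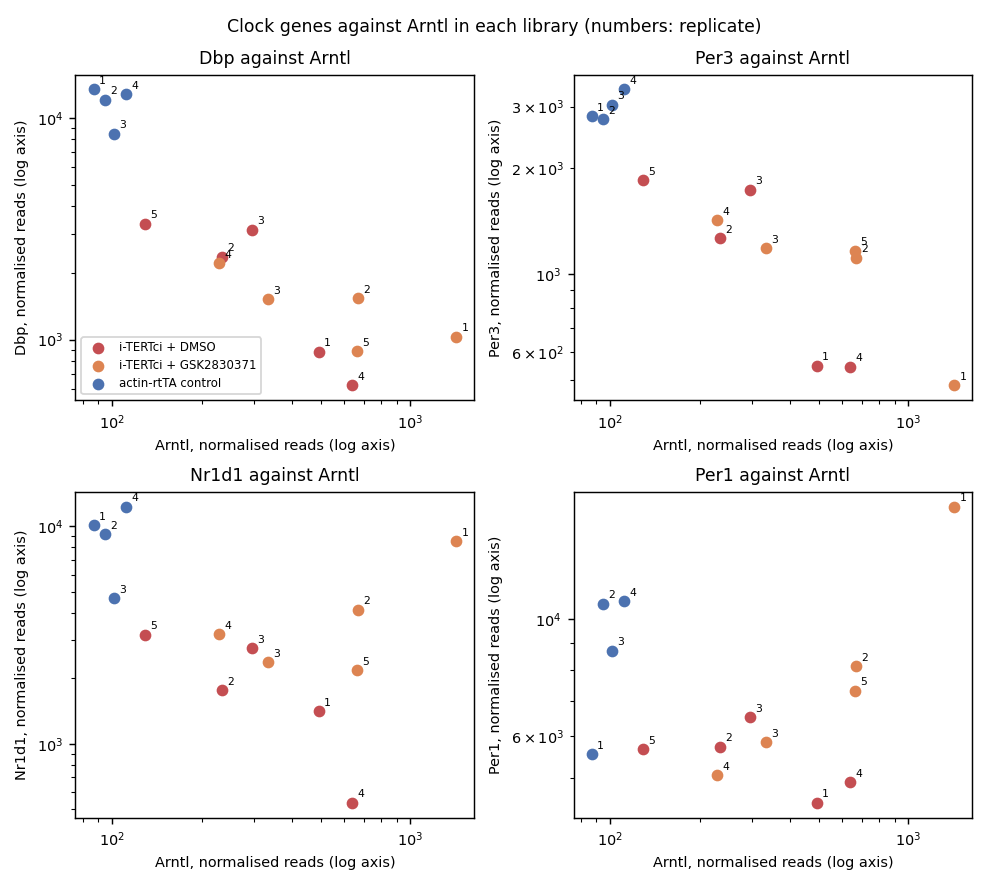
Normalised reads of Dbp, Per3, Nr1d1 and Per1 (vertical log axes) against Arntl (horizontal log axis) in each kidney, numbered by replicate, for i-TERTci + DMSO (red), i-TERTci + GSK2830371 (orange) and control (blue). Over the 10 i-TERTci libraries Dbp and Per3 fall as Arntl rises (r = -0.783 and -0.784), while Nr1d1 (r = 0.15) shows no such slope. Without GSK2830371 replicate 1, r of Nr1d1 was -0.381.

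Across all 14 libraries, with each group centred on its own mean, the genes most like Dbp among 12361 with a mean of at least 100 normalised reads were Zbtb46 (Pearson r = 0.941), Lpcat1 (0.935), Dqx1 (0.908), Tjp3 (0.904) and Fancg (0.902). Per3 ranked 31 (0.839), Tef 201 (0.74) and Nr1d1 611 (0.638). The most opposite were Mettl25 (-0.944), Wdr43 (-0.942), Pisd (-0.934), Rrp15 (-0.934) and Rassf1 (-0.91), with Arntl at -0.775 and Nfil3 at -0.854. For Clock, genes among the most alike were Igf2r (0.87), Sos1 (0.848), Kif1b (0.828) and Vps37a (0.821), and the most opposite Lancl1 (-0.851), Dtymk (-0.847), Anxa9 (-0.826), Pola2 (-0.818) and Mrpl23 (-0.804). Clock and Dbp themselves had r of 0.027. These are descriptions, with no test.

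The proteins that set the speed of the clock and its outputs were read from further lists. Of 18 tested genes for clock kinases, ubiquitin ligases and partners, 8 were higher and 3 lower in each of the comparisons with control, beside 25.2% higher and 23.1% lower of all genes in DMSO and 24.3% and 22.1% in GSK2830371 kidneys. Csnk2b, a regulatory subunit of casein kinase 2, was lower (log2 change -1.77 in DMSO, limma adjusted p = 7.27e-06, and -1.78 in GSK2830371, adjusted p = 7.08e-06). Usp2, a deubiquitinase that acts on clock proteins, had 3238, 7827, 5479, 4504 and 6084 normalised reads in DMSO, 11368, 10131, 9156, 7293 and 7001 in GSK2830371, and 19068, 18190.5, 17193 and 17225 in control kidneys. Both i-TERTci ranges were below the control range (-1.78, adjusted p = 1.79e-05, and -1.02, adjusted p = 0.00164). Sirt1, a deacetylase, was higher (0.83, adjusted p = 0.000684, and 0.98, adjusted p = 0.000227). Of 21 tested clock-controlled output genes, 4 were higher and 5 lower in DMSO, and 4 higher and 4 lower in GSK2830371 against control. That is no more than the share of all genes called (48.3% and 46.3%). Por, the reductase that serves cytochromes P450, was lower (-1.72, adjusted p = 3.86e-06, and -1.70, adjusted p = 4.73e-06), and Edn1, which encodes endothelin-1, was higher (1.76, adjusted p = 0.000759, and 1.97, adjusted p = 0.000356).

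Glucocorticoids and body temperature are known to reset peripheral clocks. Of 12 glucocorticoid-responsive genes, 4 were higher and 1 lower in DMSO, and 3 were higher and 0 lower in GSK2830371 kidneys against control. In both directions together this was a smaller share than the 48.3% and 46.3% called among all genes. Of all genes, 25.2% were higher and 23.1% lower in DMSO, and 24.3% higher and 22.1% lower in GSK2830371 kidneys. Fkbp5, a chaperone of the glucocorticoid receptor, had 26833, 17099, 31149, 18561 and 5890.1 normalised reads in DMSO, 34406, 25661, 21448, 14976 and 21475 in GSK2830371, and 2375, 3455, 5501 and 2346 in control kidneys. Its groups did not overlap with control (log2 change 2.43, limma adjusted p = 0.000267, and 2.83, adjusted p = 9.35e-05). Zbtb16 was higher too (1.56, adjusted p = 0.000622, and 2.36, adjusted p = 2.59e-05). These 2 had the smallest p-values of the list, which also holds Per1. The log2 change was negative for 5 of the 12 genes in DMSO and for 2 in GSK2830371 kidneys. Of 8 temperature-responsive genes, 2 were higher and 0 lower in both comparisons, which is about the share of all genes called higher (25.2% and 24.3%). They were the cold-inducible RNA-binding genes Rbm3 (2.53, adjusted p = 1.02e-05, and 2.12, adjusted p = 5.03e-05) and Cirbp (2.23, adjusted p = 0.00165, and 2.31, adjusted p = 0.0014). The part of either list in the clock gene values was not tested.

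Markers of kidney and immune cell types differed between the groups as well. Proximal tubule markers summed to 96970 to 265300 normalised reads in DMSO, 72280 to 298200 in GSK2830371 and 409200 to 784000 in control kidneys, and 4 of 5 were lower in each comparison. Neutrophil markers summed to 543.6 to 26130 normalised reads in DMSO, 270.2 to 17040 in GSK2830371 and 4.64 to 73.2 in control kidneys, and 7 of 7 were higher in each comparison. Of 5 macrophage markers 2 were higher in each, and Csf1r was lower in DMSO kidneys (log2 change -0.86, limma adjusted p = 0.0327). Of all genes, 25.2% were called higher in DMSO and 24.3% in GSK2830371 kidneys. Marker lists for podocytes had 1 of 4 lower in each, and those for the loop of Henle and distal tubule and for the collecting duct had 2 of 4 lower in each, beside 23.1% of all genes lower in DMSO and 22.1% in GSK2830371 kidneys, so the podocyte count is near that share. Adipocyte markers summed to 1.06 to 10.8 normalised reads in DMSO, 0 to 8777 in GSK2830371 and 27.8 to 728 in control kidneys. The highest sum was that of GSK2830371 replicate 4. Of 3 adipocyte markers 1 was lower in DMSO and 0 were called in GSK2830371 kidneys. Of 2 adrenal markers tested 1 was higher in each, and of 2 muscle markers tested 0 were called. In whole tissue, fewer cells of a type and less RNA per cell cannot be told apart, and the part of these markers in the clock gene values was not tested.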

How the data were processed

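RNA from whole kidneys of 14 mice was sequenced. Per the submitters' processing notes, FastQC, Trimmomatic, STAR and DESeq2 were used with build mm10; the counter, annotation and strand setting are not given. The 2 deposited tables, each of 9 libraries with the same 4 controls, hold signal values that the authors had divided by size factors: in every library 100.0% of values were whole multiples of 1 step (tolerance 0.001). Whole reads were recovered from those steps and the tables joined on the 23682 genes in both; control reads matched between tables for all of them. Of these genes, 96.2% matched GENCODE M21 by ID.

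Reads were scaled by median-of-ratios size factors and tested as log2(normalised reads + 1) with limma 3.58.1 (R 4.3.3), trend and robust, over 18810 genes passing edgeR's filter, with 1 design for the 3 groups and Benjamini-Hochberg adjustment. The count tests edgeR 4.0.16 and DESeq2 1.42.0 on the recovered reads were alternatives, and scripts were tested on simulated data. Genes named are the 10 members, the 11 other core clock factors, in each other list the 2 smallest p-values against control, the 5 genes most like and most opposite Dbp and Clock, and Tert. The values of 2 genes that this rule names are not reported here. Arntl correlations used 100000 permutations. The members and lists were chosen with earlier results of these data known. The labels do not say what a shared replicate number means, so the main test used no replicate block. Xist-positive means at least 1000 normalised reads. Intervals and p-values cover the spread between these libraries.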

Additional observations from a re-analysis of the deposited data

Results flagged for a closer look

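By Dixon's gap test 4 values, from 2 libraries, stood far from the rest of their group among 63 groups of 4 or 5 values tested, and chance flags about 1 in 20. Per1 was highest in GSK2830371 replicate 1, at 16280 normalised reads against 5069 to 8131 in the other 4 libraries of that group. Ciart was highest in the same library, at 838.5 normalised reads, where the other 4 had 285 to 342. Bhlhe40, a repressor that is also known to respond to stress, was highest in GSK2830371 replicate 1 (13690 normalised reads) and in DMSO replicate 1 (13790 normalised reads), while the other libraries of those groups had 4259.9 to 6312 and 5135 to 7289.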

How the results depend on the processing

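Besides the values as reported, 28 other settings were run. The count of the 10 genes called stayed at 6 to 8 in DMSO against control and 4 to 6 in GSK2830371 against control when 1 library was left out, and at 0 between the treatments. It was 5 and 6 with Xist-positive libraries only, where 6059 and 7676 of all 18810 genes were called. Genes called numbered 7561 to 9146 and 7173 to 8659 with 1 library left out, against 9079 and 8716, and 5402 and 5221 when only genes at 10 CPM or more in at least 4 libraries were tested (10133 genes). On the recovered reads edgeR called 8892 and 8496 genes. Between the treatments, 2 genes were called with Xist-positive libraries only and 1 with DESeq2, against 0. Correlations with Arntl passed, by Pearson's r, for 0 to 2 genes with 1 library left out and for 0 without the 2 farthest libraries. With the replicate block, 9589, 9248 and 0 genes and 7, 4 and 0 of the 10 clock genes were called. Same-numbered libraries correlated at -0.0605 to 0.335, and 4 of 13 pairs passed 0.1. Libraries of unlike number correlated at -0.465 to 0.383. The labels do not say what a replicate number shares, so whether the numbers pair libraries was not settled. For changes that turned sign, none of them called as reported, the cause was not tested. Against control in DMSO kidneys, these were Cry1 at -0.35 and Nfil3 at -0.57 with Xist-positive libraries only, Nfil3 at -0.40 with the Xist covariate, and Bhlhe40 at 0.0075 with edgeR, 0.0043 with DESeq2 and -0.29 to 0.0639 with 1 library left out. Against control in GSK2830371 kidneys they were, at 31 days or fewer, Per1 at 0.34, Cry1 at 0.009 and Bhlhe40 at 0.17; Cry1 at 0.0944 with the block; and, with 1 library left out, Per1 at -0.42 to 0.0057 and Cry1 at -0.17 to 0.071. Between the treatments they were Cry1 at 0.29 and Ciart at -0.24 with Xist-positive libraries only, Nr1d2 at -0.0161 with the Xist covariate and -0.0911 at 31 days or fewer, and, with 1 library left out, Per2 at -0.36 to 0.0411, Per3 at -0.27 to 0.23 and Nr1d2 at -0.082 to 0.0858. Calls of Rora (DMSO) and Npas2 (GSK2830371) were also lost with Xist-positive libraries only, at 0.72 and 1.34, as was Hlf (DMSO, -0.95), and Npas2 was called in DMSO kidneys with DESeq2 (1.42). The lowest level of any of the 10 clock genes was 56.8 normalised reads, for Ciart in DMSO replicate 1.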
